A study of Mus musculus with 26 samples.

Results

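The comparison described here sets 3 libraries of mesenteric arteries from mice with a global deletion of Panx1 against 3 libraries from wild-type mice. The members are these 6 libraries, out of 26 in the series, chosen by their titles, and all genes were fitted on them alone. All animals were male and 8 weeks old, and no treatment is given for either group. The wild-type group carried no engineered allele that the labels name, while the knockout group is labelled as a global Panx1 knockout, so the label singles out no cell type. The design text describes the controls of the series as littermate or wild-type animals, without saying which applies to this group, and does not say how the deletion was made. The design text counts 3 vascular trees per genotype, and p-values below measure the spread between these samples. The other 20 libraries hold point mutants of the channel and their controls and serve here only as a range to set the 6 libraries against.

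Pannexin 1, the product of Panx1, assembles into channels of the plasma membrane that let ATP and other small molecules leave the cell. In resistance arteries, the small vessels whose tone sets blood flow to an organ, its opening in smooth muscle is linked to the constriction that follows alpha-1 adrenergic stimulation by sympathetic nerves. Released ATP acts on ligand-gated P2X channels and G protein-coupled P2Y receptors and is broken down outside the cell by nucleotidases to adenosine, which has receptors of its own. The channel is opened or tuned by Src family kinases and cut open by caspases. The question of the comparison is which transcripts differ once the channel is missing.

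Expression is given as CPM, the count of a gene scaled to a common effective library size, with values always in the order of libraries 1, 2 and 3 of a group. CPM is not divided by gene length, so it compares a gene, or the sum of a list, between libraries and not 1 gene with another. Fold changes (log2 ratios) are those of knockout over wild type, with their standard error (SE). Libraries held 19760125 to 20050825 counts in the wild type and 18364359 to 20513267 in the knockout, and every replicate pair differed by more than sampling noise. Smooth muscle and endothelial defining markers were abundant in all 6, with Myh11 at 13276, 16200.5 and 8703 CPM and 11759.6, 11843 and 8921 CPM and Pecam1 at 2357, 2690.2 and 1715 CPM and 2628, 1983 and 1905 CPM. The groups did not overlap in several library-wide shares. Annotated ribosomal RNA took 4.12 to 5.84% of counts in wild type and 2.32 to 3.09% in knockout, and 21778 to 22188 genes had counts in wild type against 23340 to 24041 in knockout. Wild-type library 3 stood apart by fat and blood: the summed level of 15 white adipocyte markers was 6105 CPM there and 892 to 2116 CPM in the other 5 libraries, and that of the 6 tested erythroid and blood markers was 608 CPM against 2.04 to 40.4 CPM. How far these shares bear on single genes was not tested, and list medians are given with their range over single libraries left out.

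The deleted gene checks the label. Panx1 (chromosome 9, 14913424 to 14956813, minus strand of GRCm39) had 96, 61 and 95 counts in the wild-type libraries and 11, 20 and 27 in the knockout libraries. All knockout libraries lay below all wild-type libraries, with 0.967 CPM left of 4.37 CPM on average. Its log2 fold change of -2.17 (SE 0.388) had an edgeR adjusted p-value of 0.250, and DESeq2 on the same libraries gave an adjusted p-value of 0.000714. The exact two-sided permutation p on CPM was 0.1, and no smaller value can be had with 3 libraries on each side. The annotation places the long noncoding RNA Gm68912 on some of the same exon bases, and counts per gene do not show which exons the remaining reads came from. Its paralogs were barely counted, Panx2 at 0 to 10 reads in a library and Panx3 at none, and 3 counts is taken as the floor of detection.

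Of 16193 genes tested, edgeR's quasi-likelihood test passed 5 at an adjusted p-value under 0.05, which is 0.0309%, with 2 higher (0.0124%) and 3 lower (0.0185%) in the knockout. At an unadjusted p under 0.05 it was 858 higher (5.3%) and 959 lower (5.92%). Plac9, a gene for a small secreted protein first described in placenta, was counted at 328, 390.3 and 366 CPM in the wild-type libraries and 94.2, 93.8 and 90.5 CPM in the knockout libraries. The knockout values were nearly equal to each other and every one was far below the lowest wild-type value, a log2 ratio of -1.96 (SE 0.112, edgeR adjusted p-value 0.000344). Plac9 remained past the threshold in each of 14 alternative fits, with adjusted p-values up to 0.0148, whichever library was left out. Tmem254, which encodes a membrane protein, was counted at 51.4, 58.3 and 82.9 CPM in the wild-type libraries and 15, 18.4 and 20.3 CPM in the knockout libraries. Its groups were separate too, although wild-type library 3 was higher than its 2 companions (log2 ratio -1.84, SE 0.196, edgeR adjusted p-value 0.0348).

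Plac9 and Tmem254 are neighbours on chromosome 14, at 25886804 to 25903634 and 25923724 to 25928096, both on the minus strand. No gene around them, of 4 named after their values were seen, passed the test. Anxa11, which overlaps Plac9 and encodes a calcium-dependent phospholipid-binding protein, had a log2 fold change of -0.16 (SE 0.108). Zcchc24 had -0.02 (SE 0.0966), and the sarcolemmal protein gene Slmap had -0.15 (SE 0.167). Duxbl1, a homeobox gene at very low level, had -1.12 (SE 0.584) with overlapping groups. The edgeR adjusted p-values of the 4 ran from 0.518 to 0.951. RefSeq, on the older build GRCm38.p6, lists 3 genes of each name, Plac9a, Plac9b and Gm9780 and Tmem254a, Tmem254b and Tmem254c, where the annotation used here has 1 of each. Their promoters in RefSeq share runs of 222 to 300 identical bases. Transcript sequences of the copies were not compared, and the number of copies behind each total is not known.

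The third gene that was lower, Gm15446 (chromosome 5, 110071266 to 110093477, plus strand), is a predicted protein-coding gene. It was counted at 14.2, 6.95 and 8.43 CPM in the wild-type libraries and 0.905, 0.473 and 1.02 CPM in the knockout libraries, so that the lowest wild-type library was several times above the highest knockout library. The log2 ratio was -3.63 (SE 0.392, edgeR adjusted p-value 0.0302), and the gene shares exon bases with Gm26808 and another annotated gene. The promoters of the 3 genes that were lower are shown because these are the only placed genes that passed the test in that direction. Each covers 250 bases before and 50 after the 5′ end of the canonical transcript in GENCODE vM39 on GRCm39, read 5′ to 3′ on the gene's strand, at chr14:25903475-25903774 (minus) for Plac9, chr14:25928047-25928346 (minus) for Tmem254 and chr5:110071016-110071315 (plus) for Gm15446. Capitals mark the GC box.
Plac9: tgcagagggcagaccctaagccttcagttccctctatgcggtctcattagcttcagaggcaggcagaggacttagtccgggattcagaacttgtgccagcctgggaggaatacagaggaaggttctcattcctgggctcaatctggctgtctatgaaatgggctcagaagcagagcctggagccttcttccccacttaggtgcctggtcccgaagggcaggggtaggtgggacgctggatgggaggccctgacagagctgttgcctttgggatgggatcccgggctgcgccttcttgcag
Tmem254: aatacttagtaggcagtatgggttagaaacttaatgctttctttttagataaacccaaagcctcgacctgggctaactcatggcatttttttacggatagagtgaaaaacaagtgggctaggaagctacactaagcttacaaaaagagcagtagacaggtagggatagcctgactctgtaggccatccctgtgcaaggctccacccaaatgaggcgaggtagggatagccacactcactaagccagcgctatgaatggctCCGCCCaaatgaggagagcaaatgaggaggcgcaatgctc
Gm15446: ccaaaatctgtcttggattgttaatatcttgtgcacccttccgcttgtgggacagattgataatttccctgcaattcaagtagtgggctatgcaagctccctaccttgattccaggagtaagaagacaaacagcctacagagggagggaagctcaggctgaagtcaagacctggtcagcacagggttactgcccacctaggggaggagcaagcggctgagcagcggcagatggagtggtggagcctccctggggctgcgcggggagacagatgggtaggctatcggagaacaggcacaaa
A search of both strands for the TATA box TATAAA, the GC box GGGCGG and the CCAAT box CCAAT found a single match, the GC box of Tmem254, which reads CCGCCC on the strand shown. Over 21770 promoters of the same length, 13.2% held the TATA letters, 42.5% the GC box and 39.9% the CCAAT box. Each of the 3 promoters had 6 CpG dinucleotides, against a median of 11 over all, with GC contents of 58.0, 47.3 and 54.0%.

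Of the genes that were higher, 1 is not placed. ENSMUSG00000095041, which has no symbol or position in GENCODE vM39, was counted at 154, 130.3 and 170.1 CPM in the wild-type libraries and 367, 364 and 341 CPM in the knockout libraries. Every knockout library was more than double any wild-type library on this scale (log2 ratio 1.24, SE 0.126, edgeR adjusted p-value 0.0275). The noncoding transcript Gm64463 (chromosome 17, 6705923 to 6757893, minus strand) was counted at 15.1, 18.5 and 19.1 CPM in the wild-type libraries and 37.5, 34 and 36.9 CPM in the knockout libraries. It passed narrowly (log2 ratio 1.04, SE 0.127, edgeR adjusted p-value 0.0496) and overlaps the pseudogene Tmem181b-ps and 2 other noncoding genes.

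The 20 libraries of the other colonies give a wider range for the 5 genes. Scaled over all 26 libraries, Plac9 ran from 162 to 556 CPM in those 20, Tmem254 from 32.0 to 69.7, Gm15446 from 8.22 to 19.3, ENSMUSG00000095041 from 113 to 254 and Gm64463 from 7.28 to 26.5. All 3 knockout libraries lay outside the range of all 23 other libraries for each of the 5, which held for 69 of 16193 genes, or 0.426%, 32 of them above (0.198%) and 37 below (0.228%). Panx1 was not among them, since its lowest other library, at 0.852 CPM, lay inside the knockout range. In edgeR each of the 4 calls other than Plac9 was lost when wild-type library 1 or any knockout library was left out. Tmem254 was also lost without wild-type library 2. Gm64463 was lost whichever library was left out (edgeR adjusted p-values from 0.0599 to 0.420). Those 20 libraries come from other mouse lines, so line and library preparation cannot be told apart in that range.

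**Figure D1:**
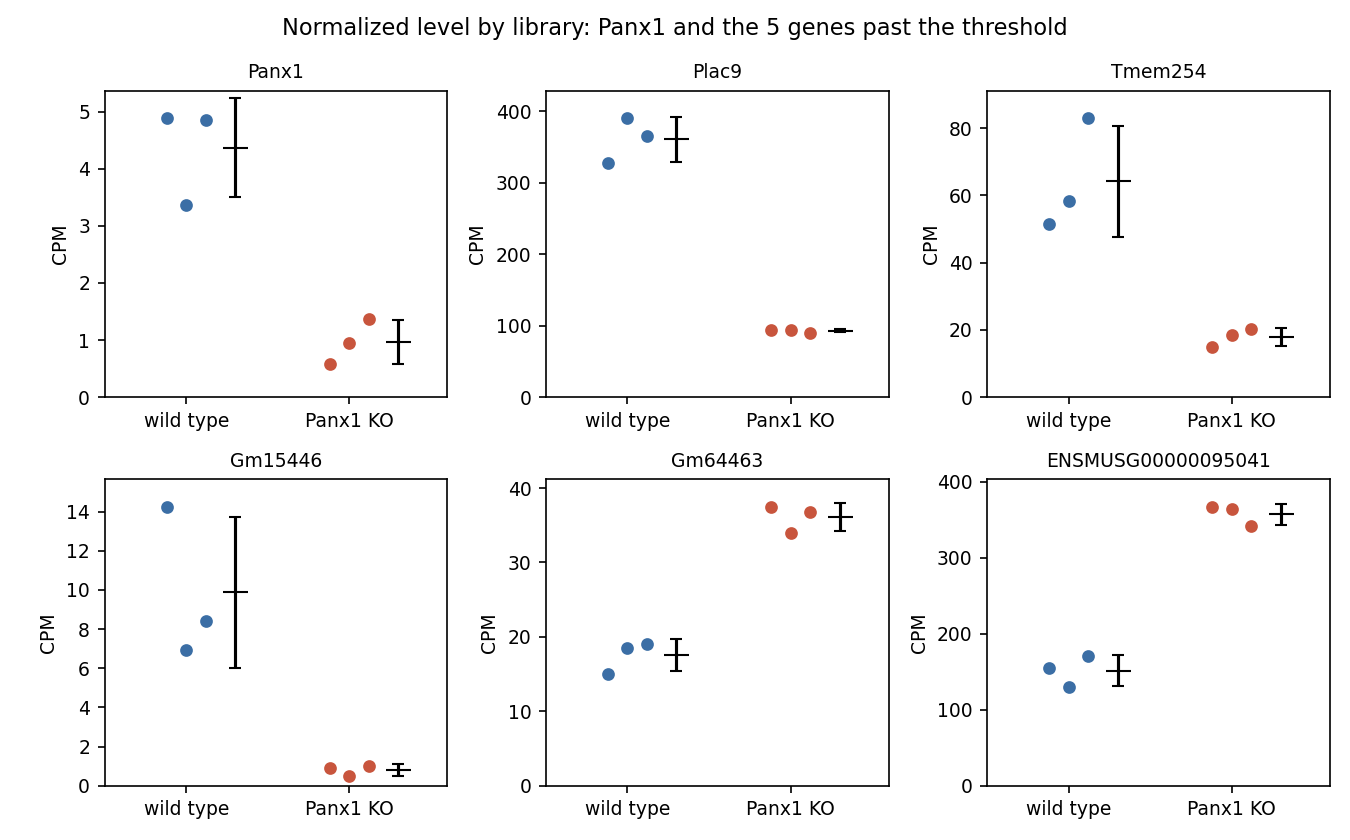
CPM per library (y axis, linear, from 0) of Panx1 and the 5 genes that passed edgeR, with each point 1 library and bars giving the mean ± SD of 3 libraries of the wild type and of the knockout. The groups are separate in every panel, and the 3 knockout points of Plac9 lie between 90.5 and 94.2 CPM.

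Protein-coding genes were also named as the 12 higher and 12 lower ones with the smallest p-values, mean log2 CPM no lower than 1 and separate groups, a set whose lower side includes Panx1, Plac9, Tmem254 and Gm15446. Among all genes tested 18.5% had no overlap between groups, 9.26% higher and 9.26% lower in the knockout, so the separation alone marks many genes. Rgs1, which encodes a GTPase-activating protein that shortens G protein signals, was counted at 5.75, 6.73 and 5.31 CPM in the wild-type libraries and 14.1, 14.9 and 15.2 CPM in the knockout libraries. The knockout values were tightly grouped at more than double the wild-type ones (log2 ratio 1.31, SE 0.168, edgeR adjusted p-value 0.0614). Rgs1 passed DESeq2 (adjusted p-value 3.89e-06), limma voom (0.0367), edgeR with no filter (1.14e-06) and edgeR with the replicate block (0.0396). In the 20 libraries of other colonies Rgs1 ran from 6.48 to 32.2 CPM, a range that takes in the knockout values. Adcy1, an adenylyl cyclase that makes cyclic AMP, stood at 4.12, 4.25 and 3.93 CPM in the wild-type libraries and 8.73, 17.2 and 11.8 CPM in the knockout libraries. All knockout libraries were above 8 CPM and all wild-type libraries below 5 CPM (log2 ratio 1.62, SE 0.259, edgeR adjusted p-value 0.182). Adcy1 passed DESeq2 (adjusted p-value 5.47e-05), edgeR with no filter (2.38e-08) and edgeR with the replicate block (0.0446).

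The RNA-binding protein gene Tia1, at 54.4 against 79.8 CPM, had a log2 fold change of 0.55 (SE 0.0938), and the zinc finger genes Zbtb37, Zfp950 and Zfp329 had 0.65, 0.56 and 0.53. Other genes of this set that were higher were Ttc39b (0.77), Trim12a (0.52), Spaca6 (0.64), Gprasp1 (0.55) and Chic1 (0.87). None of these 9 passed the filtered edgeR fit (adjusted p-values from 0.182 to 0.281), and 8 of them, all but Zfp329, passed DESeq2 on the same libraries (adjusted p-values from 0.00434 to 0.0431).

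Among the genes that were lower, Timp4, an inhibitor of matrix metalloproteinases, was counted at 149.9, 193 and 165 CPM in the wild-type libraries and 97.6, 92.1 and 89.9 CPM in the knockout libraries. The lowest wild-type library was well above the highest knockout library, and the log2 ratio was -0.86 with an SE of 0.117 (edgeR adjusted p-value 0.0838). Hrct1 had 33.1, 29.9 and 26.5 CPM in the wild-type libraries and 15.1, 17 and 16.3 CPM in the knockout libraries, and BC051019 had 22.4, 28.6 and 21.1 CPM in the wild-type libraries and 11.7, 7.66 and 9.34 CPM in the knockout libraries. Both were separate in every library, with log2 fold changes of -0.89 and -1.33 (edgeR adjusted p-value 0.0979 for each). Timp4, Hrct1 and BC051019 passed DESeq2 (adjusted p-values 1.22e-06, 0.000280 and 5.05e-06) and limma voom (adjusted p-value 0.0367 for each). P2rx5, an ATP-gated P2X channel, was counted at 18.4, 25.1 and 27.3 CPM in the wild-type libraries and 11.9, 13.7 and 11.6 CPM in the knockout libraries. The groups were separate. Its log2 fold change was -0.93, with an SE of 0.171 and an adjusted p-value of 0.265 in edgeR, and it overlaps Emc6 and Gm74248. P2rx5 passed DESeq2 (adjusted p-value 0.00459) and edgeR with no filter on low counts (adjusted p-value 4.87e-05).

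Elob, an elongin subunit, stood at 90.4 against 62.3 CPM, and Dad1, a subunit of the oligosaccharyltransferase that glycosylates proteins, at 55.4 against 37.8 CPM. The methionine sulfoxide reductase gene Msrb1 stood at 109.6 against 71.6 CPM and the complex I subunit gene Ndufs5 at 55.8 against 37.3 CPM. Their log2 fold changes were -0.54, -0.55, -0.61 and -0.58, with edgeR adjusted p-values from 0.211 to 0.265 and DESeq2 adjusted p-values from 0.00434 to 0.0175.

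**Figure D2:**
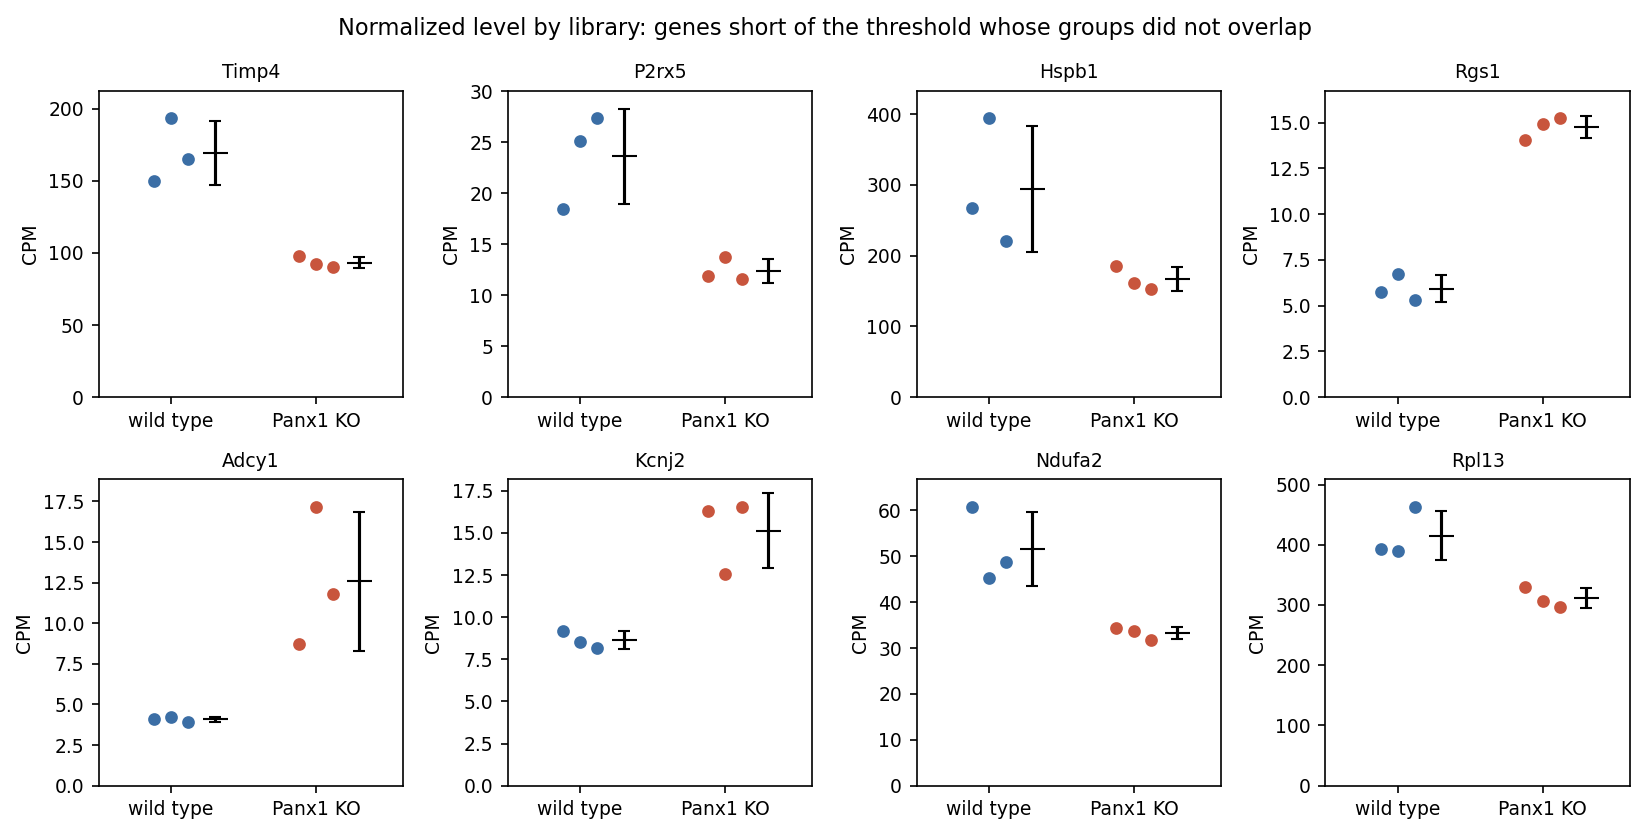
CPM per library (y axis, linear, from 0) of 8 genes that did not pass edgeR: Timp4, P2rx5, Hspb1, Rgs1, Adcy1, Kcnj2, Ndufa2 and Rpl13. Points are libraries and bars the mean ± SD of 3 libraries, and no knockout point of these genes lies inside the wild-type range.

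The authors' deposited table of this comparison passes 20 of 14914 genes, 0.134%. Its log2 fold changes for Panx1 and Plac9, -2.186 and -1.972, equal those of DESeq2 with all 8 groups at this rounding. DESeq2 on the 6 libraries alone gave -2.179 and -1.966, so the deposited count is not like for like with fits to 6 libraries. The authors' table passes the deleted gene Panx1, at a log2 fold change of -2.19 (adjusted p-value 0.0133 from DESeq2 in the authors' deposited table), and Timp4, Hrct1, BC051019, Elob, Ndufs5 and Chic1, described above. Of the 5 edgeR genes it holds Plac9, Tmem254, Gm15446 and ENSMUSG00000095041 but not Gm64463. Among the others, the authors' deposited table gives Adss2, which makes a precursor of AMP, a log2 fold change of -0.49 and the selenoenzyme gene Gpx4, which detoxifies lipid peroxides, -0.79. It gives the ribosomal protein gene Rpl7a -0.38, the mitochondrial protein gene Chchd2 -0.45, the nuclear export factor gene Gle1 -0.45 and the Nodal co-receptor gene Cripto -1.52. Cripto was counted at 12, 11 and 7.56 CPM in the wild-type libraries and 2.24, 3.26 and 5.23 CPM in the knockout libraries, with the 2 groups separate but both low. In the authors' deposited table Dclre1c, a DNA repair nuclease gene, has 0.95 and the gene it names Pisd-ps1 has 1.08. By its identifier that gene is the noncoding Gm74511 in GENCODE vM39, where it shares exon bases with Sfi1 and with a separate gene called Pisd-ps1, so its count is uncertain. The last of the 20, Naa38, has -0.73 in the authors' deposited table.

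DESeq2 fitted to the 6 libraries alone passed 117 of 12949 genes, 0.904%, with 45 higher (0.348%) and 72 lower (0.556%). All 5 edgeR genes and 17 of the authors' 20 are among them, and 113 of the 117 had separate groups. The genes named next were picked from these calls after their values were seen. Rasl10b, a Ras-like GTPase gene, was counted at 47.4, 104 and 50.3 CPM in the wild-type libraries and 26.1, 17.4 and 14 CPM in the knockout libraries. Wild-type library 2 was the highest, yet all knockout libraries were below the lowest wild-type library (log2 fold change -1.82, DESeq2 adjusted p-value 1.31e-06). Plvap, which forms the diaphragms of fenestrated endothelium, fell from 182 to 91 CPM in DESeq2 (log2 fold change -1.01, adjusted p-value 0.00477), and Cebpb, a transcription factor gene of the acute-phase response, fell from 22.2 to 10.5 CPM (-1.09, adjusted p-value 0.00236).

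Other DESeq2 calls went in both directions. Sparc, a collagen-binding matrix protein gene, fell from 2963 to 2095 CPM (DESeq2 adjusted p-value 0.0421), and Igfbp6 fell from 99.3 to 52.8 CPM (DESeq2 adjusted p-value 0.0484). Igfbp5, which like Igfbp6 encodes an insulin-like growth factor binding protein, rose from 703 to 1016 CPM (DESeq2 adjusted p-value 0.0460). Col6a6 rose from 1.83 to 6.98 CPM and the amino acid transporter gene Slc38a1 from 1.10 to 6.83 CPM, both from very low levels (DESeq2 adjusted p-values 0.00919 and 0.00447). The calcium-binding S100 genes S100a6, S100a10 and S100a13 fell by 0.46, 0.61 and 0.53 on the log2 scale (DESeq2 adjusted p-values 0.0313, 0.00919 and 0.0320). Klf15, Ankrd1 and Hspb7, genes known from cardiac and vascular muscle, had log2 fold changes of -1.07, -1.19 and -0.84 (DESeq2 adjusted p-values 0.0471, 0.0249 and 0.0394), but the groups of Klf15 and Hspb7 overlapped. Slc2a4, the insulin-responsive glucose transporter gene, fell from 174 to 122 CPM (DESeq2 adjusted p-value 0.0313).

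Some DESeq2 calls concern RNA that a poly(A) selection does not aim for. The ribosomal RNA gene Rn18s-rs5 was counted at 59571, 63147 and 41984 CPM in the wild-type libraries and 30189, 23431 and 21746 CPM in the knockout libraries (DESeq2 log2 fold change -1.13, adjusted p-value 1.17e-06), and the small nuclear RNA gene Rn7sk at 86.2, 111 and 79.3 CPM in the wild-type libraries and 57.1, 44.9 and 41.9 CPM in the knockout libraries (DESeq2 adjusted p-value 0.000241). Rn18s-rs5 is itself part of the ribosomal RNA share of the libraries given above, so its change and that share are not separate results. The part of Rn18s-rs5 and Rn7sk in other results was not tested. None of the 17 DESeq2 calls in the last 3 paragraphs passed the filtered edgeR fit, where their adjusted p-values ran from 0.211 to 0.428, and with no filter all but Rasl10b, Sparc, Igfbp6, Igfbp5, S100a6 and Klf15 passed edgeR.

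**Figure D3:**
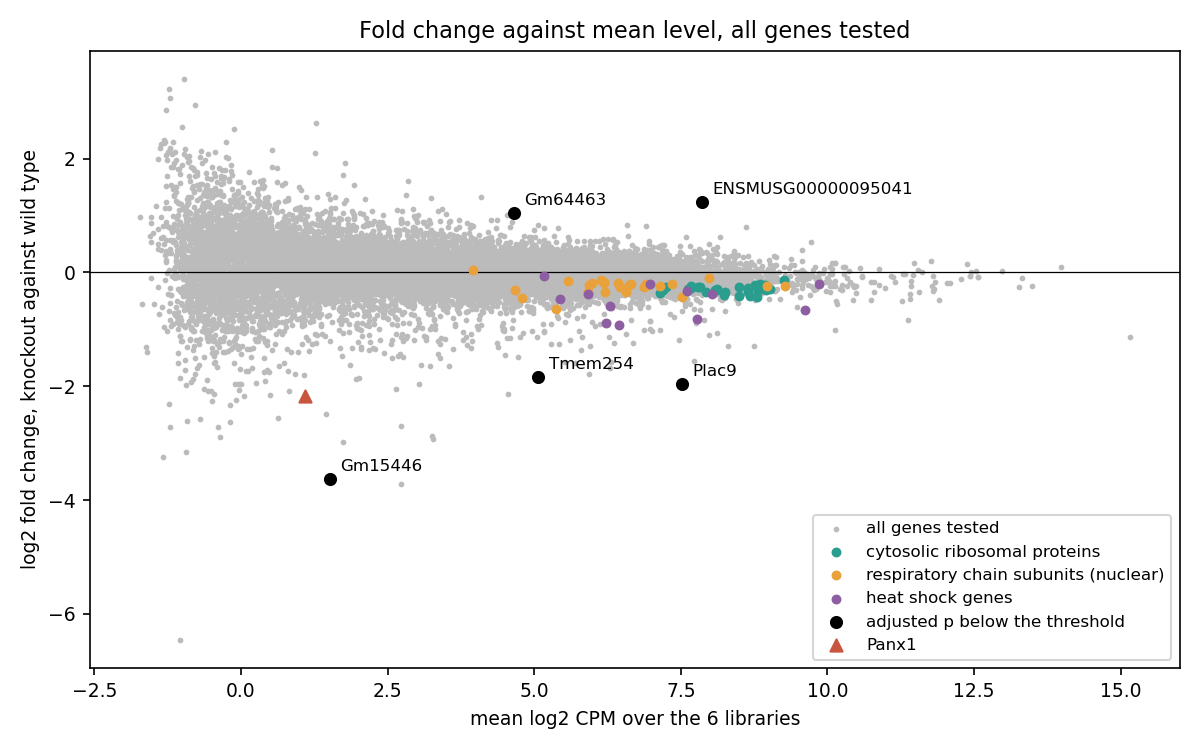
Log2 fold change, knockout over wild type (y axis), against mean log2 CPM over 6 libraries (x axis) for the 16193 genes tested, with the ribosomal protein, nuclear respiratory chain and heat shock lists coloured. The median over all genes is 0.01, while the 30 ribosomal protein genes lie between -0.43 and -0.13.

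Gene lists chosen for the tissue were read next. No member of any list passed the filtered edgeR fit, while 11 passed DESeq2 and 22 passed edgeR with no filter on low counts, so members are described by their values, by how many had groups that did not overlap (9.26% of all genes in each direction) and by the list's median log2 fold change (0.01 over all genes). Ranges of a median are those over fits with 1 of the 6 libraries left out. These are bulk arteries, so fewer cells of a type and less RNA per cell cannot be told apart.

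Channel genes related to Panx1 in family or function come first. Of 11 pannexin and connexin genes 6 were tested, with a median of -0.06 (range -0.24 without wild-type library 3 to -0.0080) and Panx1 as the only one whose groups did not overlap. The endothelial gap junction genes Gja4 and Gja5 had log2 fold changes of -0.16 (SE 0.141) and -0.35 (SE 0.236), and Gjc1 had 0.05 (SE 0.117). Gja1 was counted at 15.6, 8.93 and 34.5 CPM in the wild-type libraries and 17.1, 24.4 and 34.8 CPM in the knockout libraries, and the libraries of both groups spread over the same range. Of 15 genes for other ATP release routes 10 were tested, with a median of 0.04 (range -0.07 to 0.09, lowest without wild-type library 3). Among the volume-regulated anion channel subunits Lrrc8a had -0.26 (SE 0.130) and Lrrc8c had -0.04 (SE 0.151). Vdac1, the mitochondrial outer membrane channel gene, had -0.17 (SE 0.106) and was lower without overlap. The vesicular ATP transporter gene Slc17a9 was at low level, with CPM of 0.763, 1.21 and 2.15 in wild type and 2.61, 2.03 and 2.23 in knockout (log2 ratio 0.73, SE 0.443).

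On the receiving side, 15 of 19 ATP and adenosine receptor genes were tested, with a median of -0.01 (range -0.15 without knockout library 3 to 0.09 without wild-type library 1). P2rx1, the P2X channel of arterial smooth muscle, was counted at 864, 899.9 and 572 CPM in the wild-type libraries and 649, 764 and 614 CPM in the knockout libraries. Its ranges overlapped widely (log2 ratio -0.20, SE 0.188, edgeR adjusted p-value 0.726). P2ry1, a receptor for ADP, was counted at 9.92, 9.15 and 8.94 CPM in the wild-type libraries and 12.5, 11.2 and 15.1 CPM in the knockout libraries, higher without overlap (log2 ratio 0.47, SE 0.171, edgeR adjusted p-value 0.385). P2rx4, P2rx7, P2ry2 and P2ry6 had values from -0.09 to 0.10. Of 13 genes that break down extracellular nucleotides or clear adenosine 10 were tested, with a median of -0.03 (range -0.09 to -0.00064) and none without overlap. The main ectonucleotidase gene Entpd1 was counted at 351, 449 and 328 CPM in the wild-type libraries and 390.2, 375 and 322 CPM in the knockout libraries (log2 ratio -0.05, SE 0.149). Adora1, an adenosine receptor, had -1.18 (SE 0.736), and wild-type library 3, the one high in fat markers, gave its highest value at 20.2 CPM.

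The 13 kinases and caspases that act on pannexin 1 had a median of 0.03 (range 0.02 to 0.10, highest without wild-type library 2). Src, Fyn and Lyn had log2 fold changes of -0.13, 0.01 and 0.28, and the Src family member Yes1 was counted at 21.4, 23.6 and 21.3 CPM in the wild-type libraries and 29.2, 25.7 and 30.9 CPM in the knockout libraries, higher without overlap (log2 ratio 0.37, SE 0.120, edgeR adjusted p-value 0.347). The 9 adrenergic receptor genes had a median of -0.09 (range -0.30 to 0.08, highest without wild-type library 3) and no member without overlap. Adra1a and Adra1d, both alpha-1 receptors, had 0.12 (SE 0.281) and -0.09 (SE 0.205).

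Values of the contractile apparatus were mostly below 0. The median of 18 smooth muscle contractile genes was -0.24, 17 had values below 0, and 4 were lower without overlap. Des, the intermediate filament gene desmin, was counted at 2018, 2391 and 1705 CPM in the wild-type libraries and 1546, 1562 and 1267 CPM in the knockout libraries, with the lowest wild-type library above the highest knockout library (log2 ratio -0.48, SE 0.174, edgeR adjusted p-value 0.383). The light chain genes Myl6 and Myl9 and the tropomyosin gene Tpm2 were the other 3, at -0.35, -0.29 and -0.39. Acta2 was counted at 11246, 13244 and 8128 CPM in the wild-type libraries and 9057, 9974 and 8292 CPM in the knockout libraries (log2 ratio -0.26, SE 0.224), and wild-type library 3 was the lowest of all 6. The list median was -0.38 when wild-type library 3 was dropped and -0.09 when wild-type library 2 was, and 11 of 18 members were lower without overlap once wild-type library 3 was left out, where 15% of all genes were, a count added after seeing the data. The count was 4 without wild-type library 1 or wild-type library 2, where 14.3 and 15.8% of all genes were. It was 3 with DESeq2 size factors and 2 with the exon length trend removed, against 1542 and 1505 of all 16193 genes. Tagln was counted near 38 CPM and overlaps another gene, so its count is uncertain.

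Of 17 arterial potassium channel genes 16 were tested, with a median of 0.17 (range 0.08 without knockout library 3 to 0.19), and 3 were higher without overlap. Kcnj2, the inward rectifier Kir2.1, was counted at 9.21, 8.55 and 8.18 CPM in the wild-type libraries and 16.3, 12.6 and 16.5 CPM in the knockout libraries. The knockout libraries were all above 12 CPM and the wild-type libraries all below 10 (log2 ratio 0.81, SE 0.168, edgeR adjusted p-value 0.281, DESeq2 adjusted p-value 0.0320). Kcnq5, a voltage-gated channel, was counted at 2.39, 3.31 and 2.81 CPM in the wild-type libraries and 7.61, 6.05 and 3.86 CPM in the knockout libraries, and Abcc9, the regulatory subunit of the ATP-sensitive channel, at 41.8, 33.4 and 36.7 CPM in the wild-type libraries and 44.8, 52.3 and 46.2 CPM in the knockout libraries. Their log2 fold changes were 1.04 (SE 0.308) and 0.36 (SE 0.118), with edgeR adjusted p-values of 0.339 and 0.358. Kcna5 leaned the other way at -0.27 (SE 0.118), with overlapping groups. The large-conductance channel gene Kcnma1 and its beta subunit gene Kcnmb1 had 0.35 (SE 0.178) and -0.01 (SE 0.127).

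The 27 calcium entry and release channel genes had a median of 0.05 (range -0.05 to 0.13, lowest without wild-type library 3), with Cacna2d1, a subunit of voltage-gated calcium channels, higher without overlap (0.38, SE 0.141) and the calcium store sensor Stim1 lower (-0.19, SE 0.0973). No calcium channel gene was higher without overlap with DESeq2 size factors or with the exon length trend removed. Cacna1c, the L-type channel of arterial muscle, had 0.15 (SE 0.122). Of 20 genes for nitric oxide and endothelial relaxation 18 were tested, with a median of -0.04 (range -0.18 without wild-type library 3 to 0.04 without knockout library 2). Nos3, the endothelial nitric oxide synthase, had -0.03 (SE 0.252), and the prostacyclin synthase gene Ptgis was counted at 408, 432 and 364 CPM in the wild-type libraries and 322, 360.1 and 274 CPM in the knockout libraries, the only member lower without overlap (log2 ratio -0.33, SE 0.136, edgeR adjusted p-value 0.421). With the exon length trend removed no member of this list had separate groups.

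In the lists of cytosolic ribosomal proteins and nuclear respiratory chain subunits nearly all members had lower values in the knockout. All 30 cytosolic ribosomal protein genes had log2 fold changes below 0, from -0.43 to -0.13 with a median of -0.29, and 25 were lower without overlap, against 9.26% of all genes. At an unadjusted p under 0.05 it was 19 of the 30, against 5.92% of all genes, of which 49.2% had a value below 0. Rplp0 was counted at 489, 471 and 587 CPM in the wild-type libraries and 393, 373 and 386 CPM in the knockout libraries (log2 ratio -0.43, SE 0.127, edgeR adjusted p-value 0.339). The lowest wild-type library lay well above the highest knockout library, and Rps24 (-0.42), Rpl13 (-0.41) and Rplp1 (-0.39) were of like size. Summed over the list the level was 10405 to 12600.1 CPM in wild type and 9013 to 9275 CPM in knockout. The median stayed below 0 with each library left out, from -0.34 to -0.20, and 25 to 29 members were lower without overlap when 1 wild-type library was left out, where 14.3 to 15.8% of all genes were.

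Of 26 nuclear genes for respiratory chain subunits 25 had values below 0, with a median of -0.22, and 18 were lower without overlap. Ndufa2 of complex I was counted at 60.8, 45.4 and 48.8 CPM in the wild-type libraries and 34.4, 33.7 and 31.8 CPM in the knockout libraries, each knockout value below each wild-type value (log2 ratio -0.63, SE 0.126, edgeR adjusted p-value 0.281). The cytochrome oxidase genes Cox4i1, Cox5a and Cox5b had -0.42, -0.44 and -0.35. In DESeq2 Ndufa2 and Cox4i1 passed (adjusted p-values 0.0211 and 0.0484), as did Cox8a and the ribosomal genes Rpl41 and Rpl35, which were picked from the DESeq2 calls after their values were seen (adjusted p-values 0.0431, 0.00731 and 0.0320). The 13 protein genes of the mitochondrial genome had a median of 0.05 (range -0.11 to 0.24, highest without wild-type library 3) and no member with separate groups. With wild-type library 3 left out, a count added after seeing the data, 7 of the 13 were higher without overlap, where 15.8% of all genes were.

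Exon length moved with the comparison as a whole. With the genes in 5 equal bins of exon length, the median log2 fold change ran from -0.07 in the shortest, of 57 to 2781 bases, to 0.07 in the longest, of 9604 to 123193 bases. The share lower without overlap went from 14.3 to 3.87%, and the share higher from 7.03 to 13.1%. The median exon length was 2852 bases in the ribosomal list and 4408 in the respiratory list. With a trend on exon length removed, an alternative chosen after seeing the data, 24 of 30 ribosomal and 18 of 26 respiratory genes were lower without overlap, and 4 of 12 heat shock genes against 6 before, where 1505 of all 16193 genes were.

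The 12 heat shock genes all had values below 0, with a median of -0.42, and 6 were lower without overlap. Hspb1, the small heat shock protein of muscle, was counted at 268, 394 and 221 CPM in the wild-type libraries and 186, 161 and 153 CPM in the knockout libraries (log2 ratio -0.82, SE 0.204, edgeR adjusted p-value 0.314, DESeq2 adjusted p-value 0.0113). Hspa8 was counted at 729, 1566 and 768 CPM in the wild-type libraries and 687, 670.1 and 583 CPM in the knockout libraries, where wild-type library 2 alone is high. Without that library the median of the list was -0.16, while 6 of 12 members were still lower without overlap, where 15.8% of all genes were. Without wild-type library 3 it was 10 of 12, where 15% of all genes were. Hspa1a and Hspa1b, the inducible members, had -0.90 and -0.92 with overlapping groups.

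**Figure D4:**
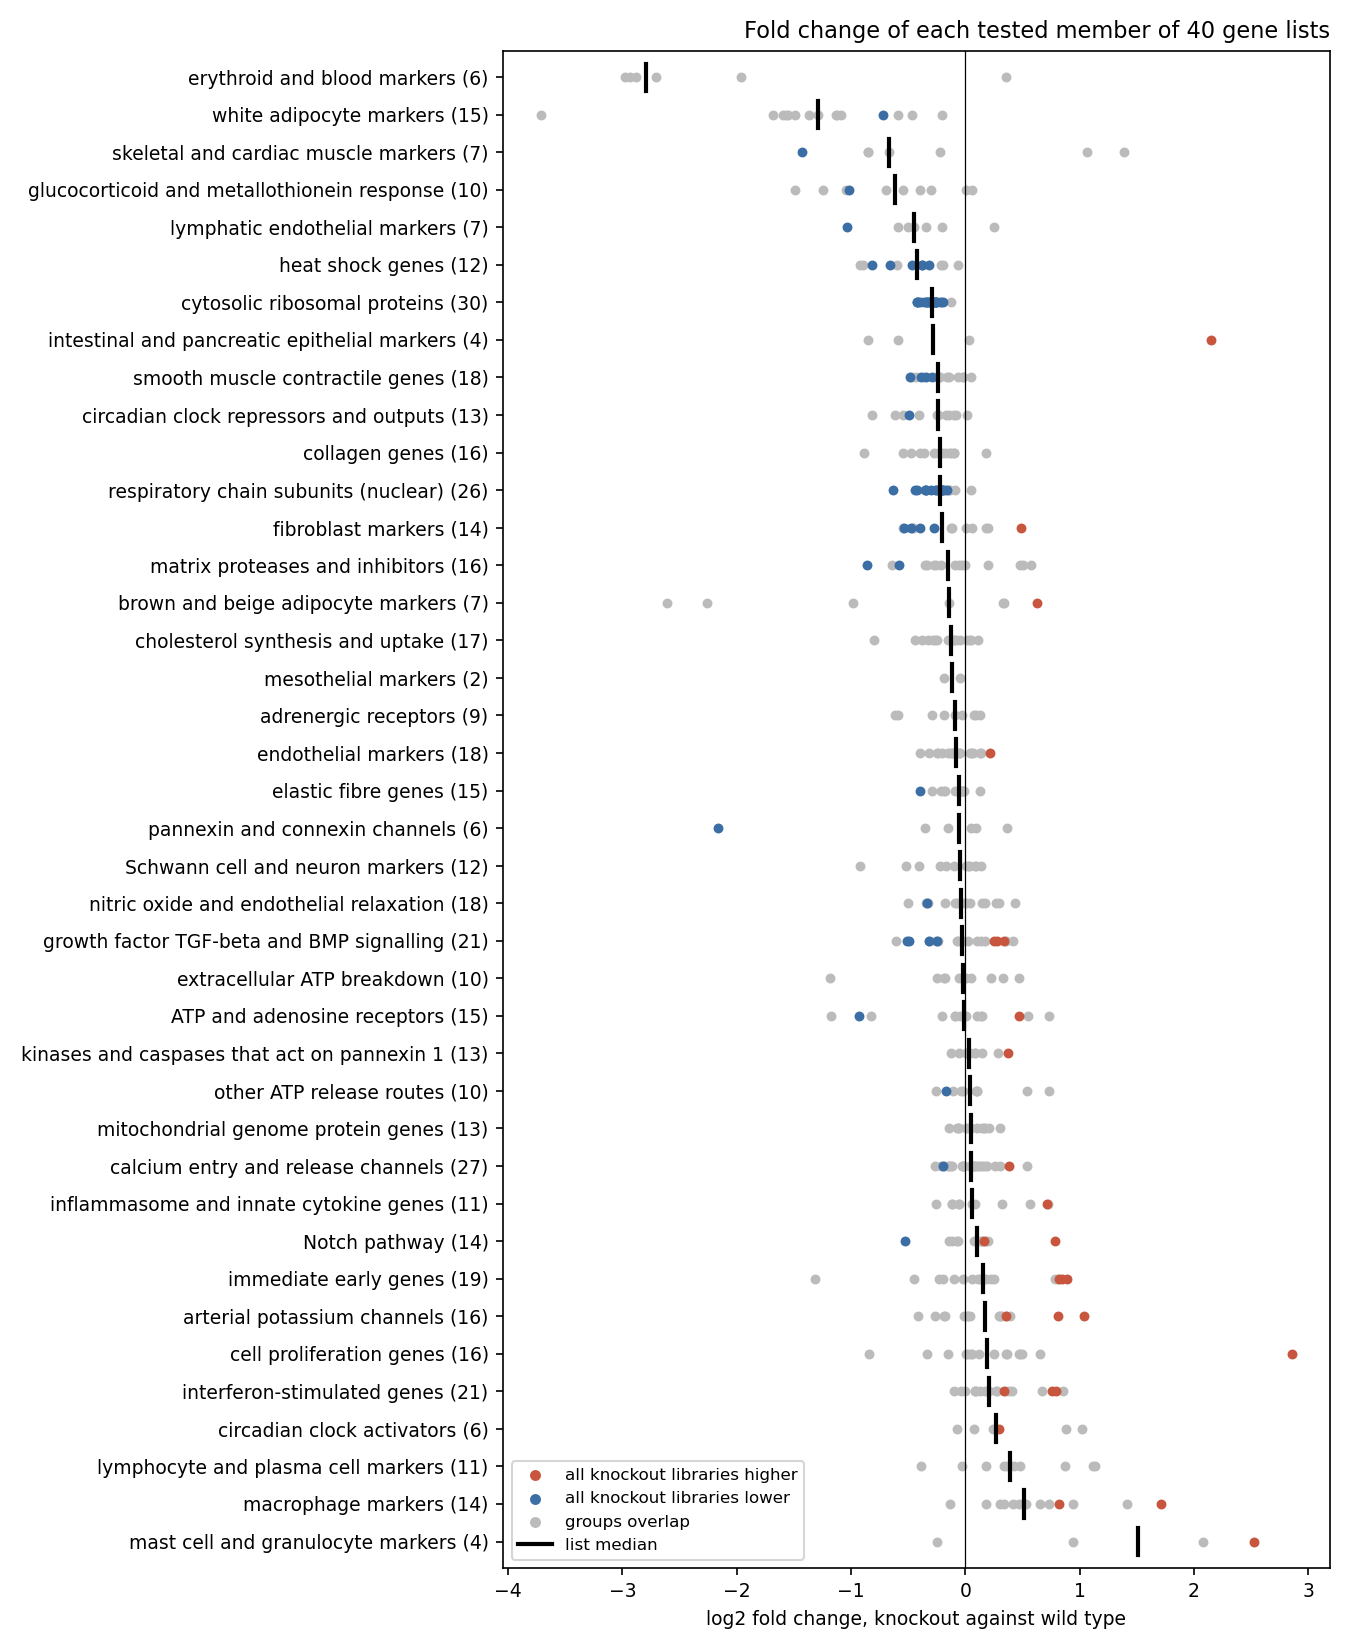
For 40 gene lists, the log2 fold change, knockout over wild type (x axis), of each tested member as a point and the list median as a bar, leaving out the substrain and sex markers, which check the samples. The 30 ribosomal protein genes all lie below 0 with a median of -0.29, while the white adipocyte list spreads from -3.71 to -0.21.

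In the wall's connective tissue, 16 collagen genes had a median of -0.22 and none had separate groups, while 8 of the 16 were lower without overlap with wild-type library 3 left out, where 15% of all genes were. The list rests on single libraries, with medians of -0.37 without wild-type library 3 and -0.01 without wild-type library 1. Among 14 fibroblast markers 4 were lower and 1 higher without overlap. Pi16, which marks adventitial progenitor fibroblasts, was counted at 255, 202 and 232 CPM in the wild-type libraries and 153, 161 and 161 CPM in the knockout libraries (log2 ratio -0.54, SE 0.115, edgeR adjusted p-value 0.289, DESeq2 adjusted p-value 0.00919). Ly6a, Mfap5 and Cd34 had -0.48, -0.40 and -0.28, while the proteoglycan gene Lum was counted at 133, 121 and 116 CPM in the wild-type libraries and 169, 149.7 and 201 CPM in the knockout libraries, opposite in direction (0.49, SE 0.128). The general fibroblast markers Pdgfra and Dpt had 0.06 (SE 0.267) and 0.01 (SE 0.236). Of 16 matrix protease and inhibitor genes Timp4 and Timp1 were lower without overlap, and Timp2 and Timp3 had -0.09 and -0.03. The 15 tested elastic fibre genes had a median of -0.06 (range -0.24 to 0.06, lowest without wild-type library 3 and highest without wild-type library 1), with Mfap5 as the one lower without overlap.

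Growth factor signalling was read by role. Of 21 TGF-beta and BMP genes 4 were lower and 3 higher without overlap. The 3 tested inhibitor-of-differentiation genes, targets of BMP signalling, were all among the lower ones: Id1 was counted at 121, 138 and 135 CPM in the wild-type libraries and 107, 84.3 and 89.2 CPM in the knockout libraries, and Id2 and Id3 had log2 fold changes of -0.32 (SE 0.0996) and -0.51 (SE 0.123) beside -0.49 (SE 0.118) for Id1. The inhibitory Smad6 had -0.25. The higher ones were Smad3 (0.34), a mediator of TGF-beta signals, the feedback inhibitor Smad7 (0.25) and the receptor Tgfbr1 (0.28). The edgeR adjusted p-values of these 7 genes were 0.314 or more, and Id3 passed in DESeq2 (adjusted p-value 0.0313). In the Notch pathway, with a median of 0.10 over 14 genes (range -0.09 without knockout library 1 to 0.17), the ligand Dll1 was counted at 30.3, 44.2 and 24.4 CPM in the wild-type libraries and 60.4, 64.4 and 45.8 CPM in the knockout libraries, higher without overlap (log2 ratio 0.79, SE 0.228, edgeR adjusted p-value 0.339). The Notch target Hey1 was lower without overlap (-0.53, SE 0.149), and the target Hey2 and the mural receptor Notch3 had 0.14 and -0.06.

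Cell type markers were read to see what else the dissected vessels held. The 18 endothelial markers had a median of -0.08 (range -0.25 without knockout library 1 to 0.03 without wild-type library 2), with only Egfl7 separate, at 0.21. With the exon length trend removed no member was higher and 1 was lower without overlap. Among 7 lymphatic endothelial markers, with a median of -0.45 (range -0.64 to -0.26 without knockout library 2), Ccl21a was counted at 91.1, 76.1 and 72.9 CPM in the wild-type libraries and 50.04, 23.4 and 44 CPM in the knockout libraries (log2 ratio -1.03, SE 0.273, DESeq2 adjusted p-value 0.00546). The near-identical copies Ccl21b, Ccl21d, Ccl21e and Ccl21f had values near -1.0, so they are not independent of it, and Lyve1 and Prox1 had -0.45 and 0.25 with overlapping groups. The 14 macrophage markers had a median of 0.51, from 0.10 to 1.16 as single libraries were left out. Cd68 at 1.68, 1.32 and 2.76 CPM in the wild-type libraries and 3.09, 3.07 and 4.01 CPM in the knockout libraries and Cd209f at 1.68, 0.276 and 4.91 CPM in the wild-type libraries and 5.0, 7.61 and 10.1 CPM in the knockout libraries were higher without overlap, both at low level, while Adgre1 had 0.73 (SE 0.638). Of 9 mast cell and granulocyte genes 4 were tested, with Cpa3 at 0.203, 0.110 and 0.869 CPM in the wild-type libraries and 0.905, 2.65 and 3.40 CPM in the knockout libraries, and of 16 lymphocyte and plasma cell genes 11 were tested with a median of 0.39 (range -0.32 without knockout library 3 to 0.91 without wild-type library 1) and none separate.

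The white adipocyte list had a median of -1.29, which became 0.02 without wild-type library 3. Adipoq was counted at 48.8, 40.9 and 269 CPM in the wild-type libraries and 33.3, 17.9 and 88.2 CPM in the knockout libraries, so the list median rests on wild-type library 3. The same holds for the haemoglobin genes, with Hba-a1 at 11.8, 0.496 and 189.8 CPM in the wild-type libraries and 10.4, 10.6 and 5.38 CPM in the knockout libraries and a list median of -2.79 that became 0.60. Of 10 brown and beige fat genes 7 were tested, with a median of -0.14 (range -0.56 to 0.18, highest without wild-type library 3). Ucp1 had 0 counts in all 6 libraries, and Ppargc1a, a coactivator of mitochondrial genes, was counted at 5.19, 6.78 and 5.47 CPM in the wild-type libraries and 9.26, 8.18 and 9.54 CPM in the knockout libraries (log2 ratio 0.63, SE 0.197). Schwann cell and neuron markers had a median of -0.05 over 12 tested (range -0.41 to 0.28, highest without wild-type library 3). Of 9 mesothelial genes 2 were tested, with a median of -0.12 (range -0.47 to 0.03, highest without wild-type library 3). Of 14 intestinal and pancreatic epithelial genes 4 were tested, with a median of -0.28 (range -0.52 to 0.13, highest without wild-type library 3). Muc2, at 0.712, 0.221 and 1.07 CPM against 3.19, 3.17 and 2.64 CPM, was the only one with separate groups, while Vil1 had -0.85, Cela1 -0.59 and Lgals4 0.03. Of 10 skeletal and cardiac muscle genes 7 were tested, with a median of -0.67 (range -0.87 to -0.48) and Ckm lower without overlap at 1.37, 0.937 and 2.2 CPM against 0.479, 0.520 and 0.660 CPM.

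Genes that follow the time and handling of a dissection varied within the groups. The clock activator Bmal1 was counted at 22.6, 6.01 and 1.43 CPM in the wild-type libraries and 2.66, 31.5 and 21.2 CPM in the knockout libraries, and its antiphase partner Dbp at 104, 169 and 255 CPM in the wild-type libraries and 224, 47 and 73.8 CPM in the knockout libraries. Wild-type library 3 and knockout library 1 were low in Bmal1 and high in Dbp, so neither group was uniform. The 13 clock repressors and outputs had a median of -0.24, from -1.01 without knockout library 1 to 0.11 without wild-type library 3, and the 6 tested activators a median of 0.27 (range 0.18 to 0.48, lowest without knockout library 2 and highest without wild-type library 2). Cry1 was lower (-0.50, SE 0.169) and Clock higher (0.30, SE 0.139) without overlap, but with the exon length trend removed no activator had separate groups. Of 11 glucocorticoid and metallothionein response genes 10 were tested, with a median of -0.62 (range -0.94 without knockout library 1 to -0.31 without wild-type library 3) and Fkbp5 at 18.5, 36.7 and 93 CPM in the wild-type libraries and 21.4, 15.7 and 15.9 CPM in the knockout libraries, high in wild-type library 3.

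The 19 immediate early genes had a median of 0.15 (range -0.05 to 0.34, lowest without wild-type library 3). Egr3 was counted at 12, 11.4 and 11.9 CPM in the wild-type libraries and 25.8, 20.9 and 15.5 CPM in the knockout libraries, separate and higher (log2 ratio 0.82, SE 0.187, edgeR adjusted p-value 0.301, DESeq2 adjusted p-value 0.0388). Egr2 (0.85) and Nr4a2 (0.89) were also higher without overlap, while Fos was counted at 84.6, 19.4 and 6.85 CPM in the wild-type libraries and 54.3, 34.8 and 102 CPM in the knockout libraries with groups that overlapped widely. The 21 interferon-stimulated genes had a median of 0.21, with Cmpk2 (0.76), Mx2 (0.79) and Xaf1 (0.34) higher without overlap. Knockout library 3 was the highest in this list, with a summed level of 463 CPM against 276 to 324 CPM in the other 5, and the median without it was 0.02. Of 18 inflammasome and cytokine genes 11 were tested, with a median of 0.06 (range -0.01 to 0.12, lowest without wild-type library 3) and Cxcl1 higher without overlap near 2 CPM. The 16 tested proliferation genes had a median of 0.19 (range 0.09 without knockout library 3 to 0.43 without knockout library 1), with Birc5 at 0.102, 0.221 and 0 CPM against 0.852, 0.804 and 0.761 CPM, and the 17 tested cholesterol genes had a median of -0.13 (range -0.29 to 0.05, highest without wild-type library 3) and none separate. Among 9 tested substrain and sex marker genes none had separate groups, and Y-linked Ddx3y was present in all 6 libraries at 96.2 to 131 CPM.

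Other counts of members without overlap also moved when a wild-type library was left out, a comparison added after seeing the data. Without wild-type library 1, where 15.1% of all genes were higher and 14.3% lower, 7 of 19 immediate early, 6 of 21 TGF-beta and BMP and 3 of 11 lymphocyte genes were higher, and 5 of 10 glucocorticoid response genes lower. Without wild-type library 2, where 16.7% were higher and 15.8% lower, 8 of 14 fibroblast, 22 of 26 respiratory and 4 of 7 lymphatic genes were lower, and 5 of 18 nitric oxide and relaxation, 5 of 14 Notch and 4 of 16 proliferation genes higher. Without wild-type library 3, where 15.8% were higher and 15% lower, 7 of 14 macrophage, 6 of 21 interferon-stimulated and 3 of 10 ATP release genes were higher, and 8 of 21 TGF-beta and BMP genes lower.

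Genes beside the deletion were read because a knockout line can carry a stretch of the chromosome it was made on. None of 112 tested genes within 10 megabases of Panx1 passed edgeR, and 20.5% had groups that did not overlap, against 18.5% of all genes. Within 5 megabases it was 8 of 26 genes, 30.8%, with a median log2 fold change of 0.11, and within 1 megabase 3 of 14. The nearest tested genes were Fut4 (2.11, at most 0.946 CPM), Cwc15 (-0.18), Amotl1 (0.09), Ankrd49 (0.06) and Mre11a (0.11) on one side and Vstm5 (-0.12), Med17 (-0.20), 4931406C07Rik (-0.10), Taf1d (0.17) and Cep295 (0.11) on the other. Of these 10 the splicing factor gene Cwc15 was lower and the fucosyltransferase gene Fut4 higher without overlap, and the sign of Mre11a, Ankrd49, Vstm5, Cep295 and 4931406C07Rik turned when 1 library was left out. Farther out, chosen after their values were seen, the stress-response gene Sesn3 had 0.55 (SE 0.183) and Ccdc82 0.40 (SE 0.0969), both higher without overlap, and the unclassified transcript 5330432J10Rik had -1.39 (SE 0.393), lower without overlap at 2.82 against 1.07 CPM. Sesn3 passed edgeR once the filter on low counts was dropped (adjusted p-value 0.0162).

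**Figure D5:**
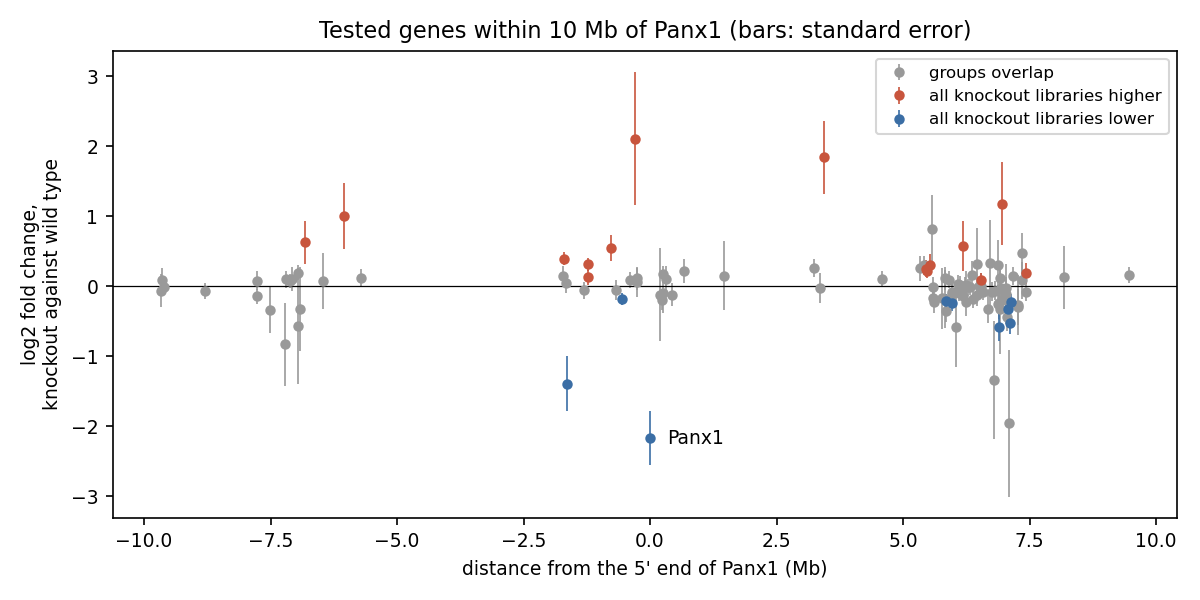
Log2 fold change, knockout over wild type (y axis), of the tested genes within 10 megabases of Panx1 against the distance of their 5′ ends from that of Panx1 in megabases (x axis), with bars of 1 SE. Panx1 at distance 0 has -2.17, and the medians within 1, 5 and 10 megabases are 0.07, 0.11 and -0.01.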

How the data were processed

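Libraries of poly(A) RNA from mesenteric arteries of male mice were sequenced as paired 150-base reads, per the labels and the design text. The authors mapped reads to GRCm39 with STAR 2.7.9a and counted them per gene in Rsubread 2.20.0 (featureCounts), as the design text says. Annotation release and strand setting are not given in the sources used here, so values of overlapping or near-identical genes are uncertain. Whole-number counts were deposited for 57010 genes. The authors' table of normalized signal, in which counts are divided by a size factor, was not used for any value here. The authors' deposited table of this comparison gives a base mean signal, log2 fold changes with standard errors, a test score and p-values from DESeq2 1.46.0.

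Of the 57010 identifiers 56310 matched GENCODE vM39. The test was edgeR 4.0.16's quasi-likelihood test in R 4.3.3 with TMM, filterByExpr and robust dispersion on the 6 libraries, with Benjamini-Hochberg adjustment over 16193 genes. Log2 CPM used a prior count of 2. Alternatives were DESeq2 1.42.0, limma 3.58.1 voom with sample quality weights, size factors, no filter, all 8 groups, the replicate block and each library left out. The tests were tried on simulated data. The members and the 41 gene lists were chosen with earlier results of these data known. Genes named were Panx1, Panx2 and Panx3, genes past edgeR or the authors' deposited threshold, the 12 leading genes per direction, up to 4 members per list and the 5 nearest genes on each side of Panx1, and the text says where others were added. Some genes that this rule names are not reported here.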

Additional observations from a re-analysis of the deposited data

How the results depend on the processing

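The count of genes past the threshold was 5 in edgeR in the filtered fit, 117 in DESeq2 on 6 libraries, 22 in DESeq2 with all 8 groups, 10 in limma voom with sample quality weights and 243 in edgeR with no filter on low counts, each holding the same 5 genes. It was 5 with DESeq2 size factors, 4 with all 8 groups in edgeR and 4 with the exon length trend removed, and Gm64463 was the gene lost in both fits that passed 4. With 1 library left out it ran from 1 to 5, and was 1, Plac9 alone, without wild-type library 1 or any knockout library. The 5 without wild-type library 3 included Col12a1 and not Gm64463. Panx1 passed in DESeq2 (-2.18), with no filter (-2.16) and in DESeq2 with all 8 groups (-2.19), and ran from -2.50 to -1.93 with 1 library left out. For these shifts the cause was not tested. Whether replicate numbers pair the samples is not known. Same-numbered libraries correlated at -0.09, 0.16 and 0.31 and differently numbered ones from -0.36 to 0.22, and these few correlations cannot decide it. The fit with the replicate block passed 19 genes. Neighbours of Panx1 near 0 changed sign with 1 library left out, where Mre11a ran from -0.00746 to 0.20, Ankrd49 from -0.13 to 0.18, Vstm5 from -0.88 to 0.14, Cep295 from -0.037 to 0.32 and 4931406C07Rik from -0.32 to 0.28, and 4931406C07Rik was 0.040 in voom. The other log2 fold changes recomputed for genes named by the rule kept their sign in each alternative. Low counts limit what depth can show, with 3 counts as the floor.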

Other observations

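The 23 libraries outside the knockout, wild type and other colonies together, give a wider range than the 3 wild-type libraries alone, and line and preparation cannot be told apart in it. All 3 knockout libraries were above all 23 in 32 genes, 0.198% of those tested, and below all 23 in 37 genes, 0.228%. The genes named next were picked after their values were seen, none of them passed the filtered edgeR fit, Ctsd and Atoh8 passed edgeR with no filter on low counts, and no test was made of them as a set.

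Among the 32 genes above all others, the RNA helicase gene Ddx17 (0.40) was counted at 682, 669 and 639 CPM in the wild-type libraries and 886, 902 and 831 CPM in the knockout libraries, and Pnisr (0.44) at 253, 224 and 234 CPM in the wild-type libraries and 321, 337 and 310.4 CPM in the knockout libraries. The separation follows from how they were picked. Their edgeR adjusted p-values were 0.339 and 0.314, and both passed DESeq2 on the same libraries (adjusted p-values 0.0429 and 0.0295).

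Among the genes below all others are the paralogs Ehd1 (-0.47), Ehd2 (-0.21) and Ehd3 (-0.39). Ehd1 was counted at 194, 221 and 184 CPM in the wild-type libraries and 157, 146 and 131 CPM in the knockout libraries (SE 0.117, edgeR adjusted p-value 0.314). Mfge8, a secreted protein that coats apoptotic cells and is abundant in arteries, was counted at 1361, 1635 and 1069.5 CPM in the wild-type libraries and 1034, 992 and 839.8 CPM in the knockout libraries (-0.50, SE 0.181). Bsg, a chaperone of lactate transporters, had -0.40, the lysosomal protease gene Ctsd -0.52 (DESeq2 adjusted p-value 0.0313), and the translation factor gene Eif1 -0.34. Atoh8, a transcription factor gene that responds to BMP signals and shear stress, was counted at 88.1, 75.7 and 82 CPM in the wild-type libraries and 63, 54.4 and 51.6 CPM in the knockout libraries (-0.54, SE 0.111, DESeq2 adjusted p-value 0.0302).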
